A study of Rattus norvegicus with 12 samples.

Results

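The comparison described here sets rat cortical neuron cultures with a knockdown of Ehmt1 against wild-type cultures, averaged over silenced and untreated conditions. It used all 12 libraries of the series and 12073 of the 17339 gene symbols in the deposited 12-library table, those that reached 10 read equivalents in 3 or more libraries. Libraries came from primary cortical cultures of Wistar rats at embryonic day 18, with 3 in each of 4 groups, since each genotype was either left untreated or given tetrodotoxin (TTX). This toxin blocks voltage-gated sodium channels and so stops action potentials. Knockdown cultures carried a short hairpin RNA (shRNA) against Ehmt1, and the wild-type titles name no hairpin. An effect of carrying a hairpin therefore cannot be told apart from an effect of less Ehmt1. No source used here gives the hairpin's sequence, its delivery, or the dose and duration of TTX.

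For each genotype and replicate number, the log2 levels of the untreated and the TTX library were averaged, which gave 3 knockdown and 3 wild-type values per gene. These are called cultures 1 to 3 of each genotype. That both libraries of a number come from the same culture is inferred and not stated by the labels. Nor do the labels say that the 3 numbers are separate litters or days, so the spread between cultures may be technical in part. A level is given in read equivalents, which is covered bases of a transcript divided by the read length of 42 nt, after the authors' size factors. Differences are knockdown minus wild-type on the scale of log2(read equivalents + 1), which understates the difference of low genes, and have a standard error (SE) from limma. Values in a list follow cultures 1, 2 and 3.

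EHMT1, also called GLP, works as a dimer with EHMT2 (G9a) and places mono- and dimethyl marks on lysine 9 of histone H3, which go with silent genes in euchromatin. Loss of a copy of EHMT1 in humans causes Kleefstra syndrome, a disorder of intellectual development. In neurons the pair has been studied for its part in silencing genes of other tissues and of other developmental stages, and the title of the series names synaptic scaling, the adjustment of synapse strength to long changes in firing.

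Depth ran from 15108848 to 24787516 read equivalents per library, size factors undone. Depth is known only as this coverage, so no counting interval is given. All 20 glutamatergic and all 26 GABAergic neuron markers of the lists used were measured in these cultures. Glia were also present: 19 of 20 astrocyte and 19 of 20 oligodendrocyte lineage markers were measured, against 9 of 20 for microglia and 5 of 16 for endothelium. Knockdown culture 1 stood apart from the other 5 in oligodendrocyte lineage genes, and wild-type culture 3 in genes of choroid plexus and microglia. Values without these cultures are given beside the results they touch.

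Ehmt1 (NM_001108572), the target, was lower in every knockdown library than in any wild-type library. It stood at 1772, 1586 and 1599 in untreated and 2039, 1739 and 1839 in TTX-treated wild-type libraries, and at 1044, 1535 and 1037 in untreated and 1187, 1519 and 1162 in TTX-treated knockdown libraries. Averaged by culture the levels were 1247 ± 242 in knockdown and 1762 ± 127 in wild-type (SD, n = 3 cultures each), so that 70.8% of the transcript remained. Cultures differed in this: 63.3% remained in knockdown culture 1, 86.6% in culture 2 and 62.4% in culture 3. The exact two-sided permutation p was 0.1, the smallest that 3 against 3 allows. In limma the difference was -0.51 (SE 0.17, adjusted p = 0.773), and its adjusted p lay between 0.127 and 0.997 over the alternatives. Ehmt2 (NM_212463), the partner enzyme, was at 4231 ± 559 against 4486 ± 473 (SD, n = 3 cultures each), with overlapping cultures and a difference of -0.09 (SE 0.15).

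Over all genes, the knockdown and wild-type culture means gave no gene that passed. Limma called 0 of 12073 genes at an adjusted p under 0.05 (0% of genes tested), and the lowest adjusted p was 0.773. At an unadjusted p under 0.05 there were 735 genes (6.09%), 391 higher and 344 lower in knockdown. The 3 knockdown culture means all lay above the 3 wild-type means in 751 genes (6.22%) and all below in 759 (6.29%). All 6 knockdown libraries lay above all 6 wild-type libraries in 102 genes (0.845%) and below in 126 (1.04%). Differences were balanced, with 6053 positive genes and a median of 0.00. Treating the 12 libraries as separate replicates called 3 genes (0.0248%), all higher in knockdown with an adjusted p of 0.0449 in limma: Mmp2, Nrsn2 and Cntnap5a, whose adjusted p was 0.773 over culture means. This counts each culture as 2 replicates, and with culture as a random block the count was 0. Values as deposited, before division by the read length, gave 25 calls among 14609 genes, 17 higher and 8 lower. There the minimum and the added 1 applied to undivided values, so that genes of lower coverage were also tested. No gene named below passed over culture means, so what follows gives levels and differences of genes that stood out by rank or belong to a list.

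**Figure D1:**
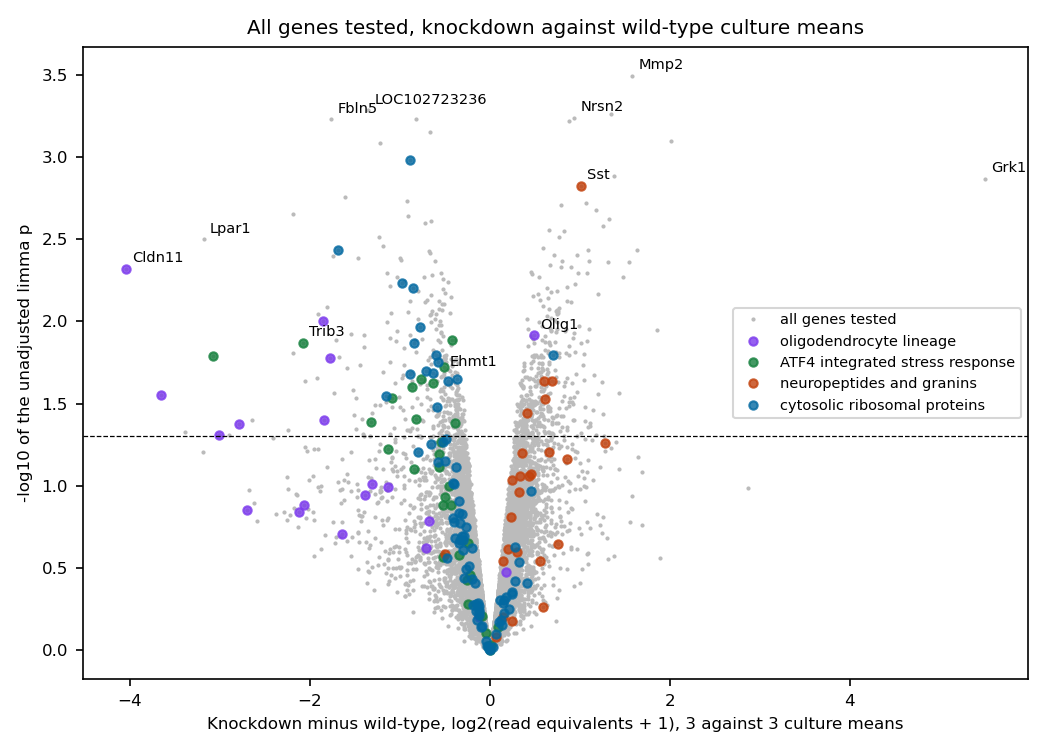
Each point is 1 of 12073 genes, with the knockdown minus wild-type difference in log2(read equivalents + 1) on the x axis and -log10 of the unadjusted limma p on the y axis, and the dashed line marks the unadjusted threshold of 0.05. Members of the oligodendrocyte lineage and ATF4 lists lie mostly left of 0 and neuropeptides and granins right of it, and no gene passed after adjustment.

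The 15 genes with the smallest unadjusted p in each direction are described by role, among genes with a mean of at least 50 read equivalents over the 12 libraries and culture means that did not overlap. That their culture means lie apart thus follows from the choice. Of those higher in knockdown, the matrix protease Mmp2 (NM_031054), which cleaves collagen and other matrix proteins, had the smallest unadjusted p. It was at 284, 333 and 544 untreated and 358, 416 and 440.4 with TTX in wild-type, and at 1361, 778 and 1104 untreated and 1512, 1092 and 1277 with TTX in knockdown. All 6 knockdown libraries thus lay above all 6 wild-type libraries, the means being 1187 ± 251 and 396 ± 87.4 (SD, n = 3 cultures each), a 3.00-fold difference (1.58, SE 0.23). Nrsn2 (NM_001109561), which encodes the neuronal vesicle membrane protein neurensin-2, was at 104, 94.4 and 104 and 96.3, 112 and 121 in untreated and TTX-treated wild-type libraries, and at 205, 156 and 245 and 228, 184 and 206 in those of knockdown. Again no library of a genotype reached the range of the other, and the difference was 0.94 (SE 0.15). Cntnap5a (NM_001047865), a neurexin-like adhesion gene just under that mean, was at 63.5 ± 4.64 against 35.2 ± 5.67 (SD, n = 3 cultures each), with a difference of 0.88 (SE 0.14). Its difference was 0.49 in untreated and 1.28 in TTX-treated libraries.

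Several of the 15 genes ranked highest have neuronal roles or belong to classes known to depend on activity. Sst (NM_012659), the precursor of the interneuron peptide somatostatin, was at 1472, 1108 and 1862 untreated and 287, 445 and 418 with TTX in wild-type, and at 2714, 1935 and 2652 and 1222, 819.7 and 783 in knockdown. Knockdown libraries were higher within each treatment, while the genotypes overlapped across treatments, TTX-treated libraries of both being lower (1.01, SE 0.19). Nrgn, which encodes the postsynaptic calmodulin-binding protein neurogranin, was at 1706 ± 244 against 837 ± 273 (SD, n = 3 cultures each; difference 1.08, SE 0.26). Rab3b, a small GTPase of synaptic vesicles, was at 721 ± 162 against 376 ± 69.8 (SD, n = 3 cultures each; difference 0.97, SE 0.22). Both kept their culture means apart, and the 2 genes overlapped between genotypes only when libraries of different treatment were set side by side. Egr1, an immediate early transcription factor, was at 136, 204 and 242 and 168, 199 and 255 in untreated and TTX-treated wild-type libraries and at 509.9, 216 and 287 and 458, 534 and 392 in knockdown (0.95, SE 0.24). Untreated libraries overlapped in Egr1 and TTX-treated ones did not. In wild-type, Egr1 stood at similar levels with and without TTX. Rgs16, a brake on G-protein signalling, had a difference of 1.48 (SE 0.36), and Nnat, the imprinted proteolipid gene neuronatin, one of 0.46 (SE 0.11) at 19775 ± 439 against 14306 ± 691 (SD, n = 3 cultures each).

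The other highest-ranked genes had metabolic, transport or cytoskeletal roles. Chdh, the mitochondrial choline dehydrogenase, differed by 1.09 (SE 0.25) and Aldh1b1, a mitochondrial aldehyde dehydrogenase, by 0.80 (SE 0.19). Slc22a3, the transporter of organic cations and monoamines, was at 416 ± 81.7 against 196 ± 55.2 (SD, n = 3 cultures each; difference 1.10, SE 0.26). In all 3 the 6 knockdown libraries lay above the 6 wild-type libraries. Sh3bgrl3, a small thioredoxin-fold protein (0.67, SE 0.16), and Tpgs2, a subunit of the enzyme that adds glutamate chains to tubulin (0.47, SE 0.11), were separated in the same way. Crip2, a LIM-domain protein, differed by 0.54 (SE 0.13) with culture means apart and single libraries overlapping.

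Grk1 (NM_031096), which encodes rhodopsin kinase of the retina, had the most positive difference of the genes tested and nearly no transcript in wild-type. It was at 10.3, 9.89 and 1.45 untreated and 1.36, 36.2 and 1.34 with TTX in wild-type, and at 733, 136 and 70.2 untreated and 1052, 595 and 119 with TTX in knockdown. No knockdown library was as low as any wild-type library, but knockdown libraries themselves ranged from 70.2 to 1052 read equivalents (5.50, SE 1.03). Without any 1 culture the difference lay between 4.69 and 6.34. The gene next to Grk1 in the RefSeq annotation, Tmem255b, was looked at after the values of Grk1 were seen. Tmem255b, which encodes a transmembrane protein, was at 712, 479.5 and 515 and 685, 615 and 488 in untreated and TTX-treated wild-type libraries, and at 68.5, 444 and 656 and 74.7, 484 and 649 in knockdown. Both libraries of knockdown culture 1, the culture with the most Grk1, were low in Tmem255b, and the other 4 knockdown libraries lay within the wild-type spread or just below it. How the pair are related was not tested.

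**Figure D2:**
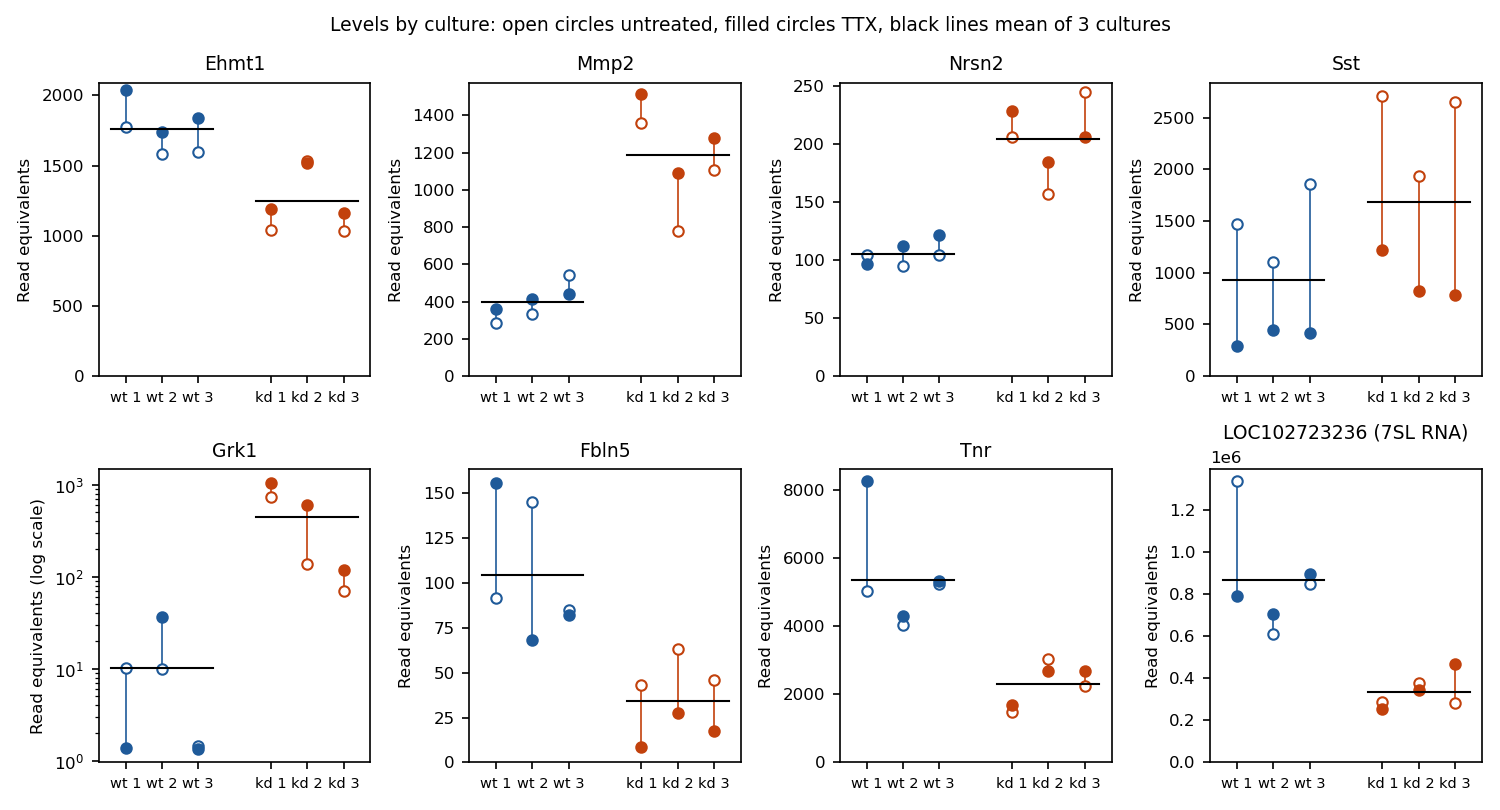
Levels in read equivalents of 8 genes in each library, by genotype (wt, wild-type; kd, knockdown) and culture, with open circles for untreated and filled circles for TTX-treated libraries and black lines for the mean of 3 cultures. Knockdown cultures lie below wild-type in Ehmt1, Fbln5, Tnr and LOC102723236 and above in Mmp2, Nrsn2, Sst and Grk1, whose axis is logarithmic.

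The entry with the smallest unadjusted p among lower genes was LOC102723236 (NR_110377), named Rn7sl1 in RefSeq, the 7SL RNA of the signal recognition particle that guides ribosomes to the endoplasmic reticulum. This abundant small RNA took up 3.00% to 6.43% of all coverage in the 6 wild-type libraries and 1.30% to 2.25% in the 6 knockdown libraries, without overlap (-1.35, SE 0.21). Reads from related copies in the genome may be counted with it. Quantile normalization, which makes the highest entry of each library alike, left a difference of -0.14. Residual ribosomal RNA also differed: Rn45s, the ribosomal RNA precursor, was at 900.0, 1258 and 5442 and 1647, 2104 and 6223 in untreated and TTX-treated wild-type libraries, and at 429, 623 and 1120.5 and 632, 506 and 1011 in knockdown (-1.74, SE 0.61). Wild-type culture 3 was highest in Rn45s. Ribosomal RNA had been removed by a kit before library preparation. The part of ribosomal RNA removal in the 7SL difference was not tested.

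Matrix and adhesion genes made up the next group of lower genes. Fbln5 (NM_019153), the elastic-fibre protein fibulin-5, was at 91.6, 145 and 85.1 untreated and 156, 68.2 and 82.2 with TTX in wild-type, and at 43.4, 63.2 and 45.9 and 8.85, 27.7 and 17.3 in knockdown. The genotypes did not overlap in any library, and the difference was -1.04 untreated and -2.48 with TTX (both averaged -1.76, SE 0.28). Ddr2, a collagen receptor kinase, was at 201 ± 43.8 against 381 ± 47.4 (SD, n = 3 cultures each; difference -0.91, SE 0.18). Tnr (NM_013045), tenascin-R of perineuronal nets and a product of oligodendrocytes and some interneurons, was at 5020.2, 4018 and 5235 untreated and 8258, 4306 and 5319 with TTX in wild-type, and at 1480.5, 3029 and 2240.1 and 1685, 2668 and 2671 in knockdown (-1.23, SE 0.27). All knockdown libraries were below all wild-type libraries in Ddr2 and Tnr, and knockdown culture 1 was the lowest in Tnr. Cldn11 and Lpar1, also among the 15, are taken up with the oligodendrocyte genes.

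A further 8 of these lower genes had varied roles, each with all 6 knockdown libraries below all 6 wild-type libraries. Stom, the membrane protein stomatin, differed by -1.14 (SE 0.28), Gpr149, an orphan receptor, by -0.90 (SE 0.19) and Map7, a microtubule protein that recruits kinesin, by -0.72 (SE 0.15). Lcat, an enzyme that esterifies cholesterol in lipoproteins, was at 408 ± 59.4 against 652 ± 58.8 (SD, n = 3 cultures each; difference -0.67, SE 0.15). C1galt1, which builds the core of mucin-type O-glycans (-0.55, SE 0.13), Ube2d4, a ubiquitin-conjugating enzyme (-0.66, SE 0.15), and RGD1304595 (-0.60, SE 0.14) had the smallest differences of the 8. Lsm5, of the spliceosomal U6 particle, was at 38.1 ± 11.1 against 88.9 ± 22.6 (SD, n = 3 cultures each; difference -1.19, SE 0.27).

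Genes of the oligodendrocyte lineage had the lowest median of the lists with all cultures included. Without knockdown culture 1 it was -0.59, against -1.51 for microglia and -1.16 for choroid plexus genes. Of the 19 measured, 17 were lower and 2 higher in knockdown, with a median of -1.78 against 0.00 over all genes tested. Below wild-type in all cultures lay 6, and above 1, where 6.29% lay below and 6.22% above over all genes. In bulk RNA, fewer cells of a type and less RNA per cell cannot be told apart. Cldn11 (NM_053457), claudin-11 of myelin tight junctions, was at 518, 145 and 233 untreated and 805, 103 and 104 with TTX in wild-type, and at 3.25, 37.7 and 30.4 and 2.21, 19.2 and 21.5 in knockdown (-4.05, SE 0.96). Lpar1, a lysophosphatidic acid receptor found on oligodendrocytes but not on the list, was at 214, 66.1 and 183 and 330.1, 98.4 and 195 in untreated and TTX-treated wild-type libraries, and at 6.62, 32.3 and 31.4 and 4.85, 17.4 and 33.8 in knockdown (-3.18, SE 0.70). Neither gene overlapped between genotypes in any library.

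The members differed in which knockdown cultures were low. Pdgfra, the receptor that marks oligodendrocyte precursor cells, was at 11871, 8312 and 7555 untreated and 14729, 9679 and 6492 with TTX in wild-type, and at 398, 8572 and 7651 and 440.0, 7853 and 8085 in knockdown. Knockdown culture 1 was thus far below the other 5 cultures, while knockdown cultures 2 and 3 lay within the wild-type range. Cspg4, the NG2 proteoglycan of precursor cells, and the lineage transcription factors Nkx2-2 and Sox10 were also lowest by far in knockdown culture 1. Sox10, which acts in the whole lineage, was at 26.4, 633 and 603 in untreated knockdown against 1286, 531 and 721 in untreated wild-type libraries. Without knockdown culture 1 the difference of Pdgfra was -0.23 in place of -1.65 and that of Cspg4 -0.04 in place of -0.71. Of genes of differentiating cells, Cldn11, Ugt8, Enpp6 and Myrf had culture means below wild-type in all 3 knockdown cultures. The same held for Sox10 and for Gpr17, another member. Mag, Mobp, Cnp, Bcas1 and Ermn were lower with overlapping culture means, and Mog was higher with overlap (0.18, SE 0.17). Myrf, the transcription factor that starts myelin gene expression, was at 777, 495 and 887 and 1852, 528 and 1010.0 in untreated and TTX-treated wild-type libraries, and at 107, 476 and 259 and 118, 308 and 303 in knockdown (-1.86, SE 0.51; -1.35 without knockdown culture 1). Enpp6, a choline phosphodiesterase of newly formed oligodendrocytes, was at 211, 55.6 and 158 and 296, 54.0 and 144 in wild-type and 0.63, 22.2 and 38.8 and 0, 18.2 and 37.4 in knockdown, in the same order (-2.16 without knockdown culture 1 against -3.66 with it). Mbp, myelin basic protein, overlapped between genotypes, and wild-type culture 2 was the lowest of its genotype in it. It stood at 4914, 814 and 4206 in untreated wild-type and 97.1, 707 and 1402 in untreated knockdown libraries. Olig1 went against the list, at 17976 ± 1687 in knockdown and 12833 ± 1325 in wild-type (SD, n = 3 cultures each; difference 0.49, SE 0.14), with culture means apart. Olig2, its neighbour factor, was at 5607 ± 1432 against 6015 ± 976 (SD, n = 3 cultures each) and overlapped. The summed level of the 20 markers was 43032 to 90272 in wild-type and 25989 to 56664 in knockdown libraries. Leaving out any 1 culture gave list medians from -2.19 without wild-type culture 2 to -0.59 without knockdown culture 1. Without knockdown culture 1, 16 of 19 were still lower and 6 lay below wild-type in all remaining cultures, against 976 of 12073 over all genes. The part of these cells in other differences, such as that of Tnr, was not tested.

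**Figure D3:**
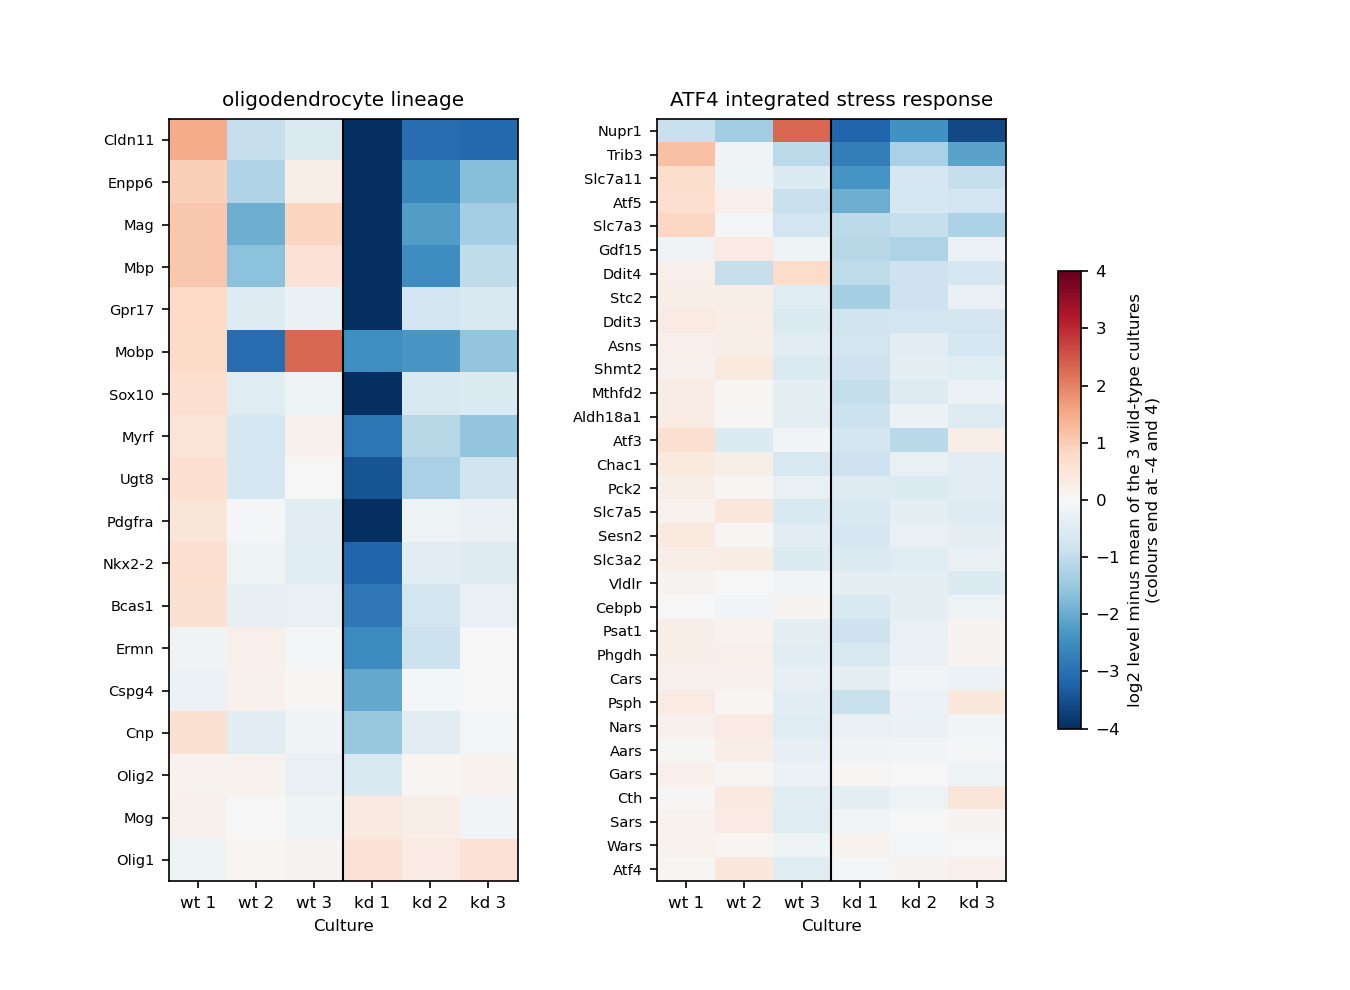
Colours show the log2 level of each member, averaged over treatments, in each of 6 cultures minus the mean of the 3 wild-type cultures, for 18 of the 19 measured oligodendrocyte lineage genes and the 32 of the ATF4 list, with members ordered by their difference. Pdgfra and Cspg4 are low in knockdown culture 1 and near 0 in knockdown cultures 2 and 3, while Cldn11 and Enpp6 are low in all 3.

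Markers of microglia and of choroid plexus were sparse, and their medians moved most with wild-type culture 3. All 9 measured microglia and macrophage genes were lower in knockdown (median -1.25), 3 of them below wild-type in all cultures, against 6.29% over all genes. C1qa and C1qc, complement genes that define microglia, were listed at 0 in all 6 knockdown libraries. In wild-type C1qa was at 1.15, 0 and 25.3 untreated and 14.3, 0.856 and 35.7 with TTX, so that wild-type culture 2 was also near 0. Leaving out the genes listed at 0 gave a median of -1.05 over the remaining 7, and leaving out wild-type culture 3 a median of -0.48. Summed over the 20 markers, levels were 1470.0 to 1858 in wild-type and 1045 to 1513 in knockdown libraries. Choroid plexus and ependyma genes had a median of -1.15 (9 of 11 lower), which became -0.19 without wild-type culture 3, where Ak7, a kinase of motile cilia, stood at 405.7 and 547.7 against 23.1 or less in the other 10 libraries. Astrocyte markers were well covered and had a median of -0.08 (12 of 19 lower, none with culture means apart), which was -0.24 without knockdown culture 3 and 0.02 without knockdown culture 1, with sums of 192750 to 305931 in wild-type and 196236 to 369231 in knockdown libraries. The pericyte, fibroblast and meninges list had a median of -0.02 over 11 genes and the 5 endothelial genes one of 0.30. The pericyte, fibroblast and meninges median was 0.39 without wild-type culture 3, 0.09 without knockdown culture 1 and -0.26 without wild-type culture 1. That of the endothelial genes was 0.42 without wild-type culture 3, 0.01 without knockdown culture 1 and -0.07 in TTX-treated libraries alone.

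Most genes of the integrated stress response were lower in knockdown, and wild-type culture 3 lay with the knockdown cultures. This pathway slows translation when amino acids or protein folding fail, and raises the factor ATF4, which in turn activates genes for amino acid import and synthesis. Of its 32 measured genes 30 were lower and 2 higher (median -0.51), 10 lying below wild-type in all cultures and none above, against 6.29% below over all genes. Relative to the wild-type mean the list medians were 0.22, 0.16 and -0.43 in wild-type and -0.73, -0.36 and -0.29 in knockdown cultures 1 to 3, so that the genotypes overlapped. Without wild-type culture 3, 25 of the 32 lay below wild-type in all remaining cultures, against 1456 of 12073 over all genes. Trib3 (NM_144755), a pseudokinase induced by ATF4, was at 285, 143 and 67.2 untreated and 244, 76.2 and 46.5 with TTX in wild-type, and at 21.1, 68.3 and 34.6 and 12.1, 31.3 and 18.3 in knockdown (-2.08, SE 0.62). Its culture means did not overlap, though knockdown culture 2 reached the untreated level of wild-type culture 3. Ddit3, the stress factor CHOP, was at 828, 827 and 485 and 694, 629 and 329 in untreated and TTX-treated wild-type libraries, and at 403, 406 and 429 and 299, 308 and 303 in knockdown (-0.77, SE 0.26). Here the 3 knockdown cultures were alike and wild-type culture 3 was the lowest of its genotype.

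Genes of amino acid supply and metabolism had the same direction. Asns, asparagine synthetase, was at 1168 ± 134 against 1846 ± 449 (SD, n = 3 cultures each; difference -0.63, SE 0.21) and Pck2, mitochondrial phosphoenolpyruvate carboxykinase, at 119 ± 3.74 against 173 ± 31.4 (difference -0.51, SE 0.16). The cystine transporter Slc7a11 differed by -1.32 (SE 0.52) and the cationic amino acid transporter Slc7a3 by -1.08 (SE 0.39). Vldlr, a reelin and lipoprotein receptor, was at 1142 ± 76.6 against 1543 ± 138 (SD, n = 3 cultures each; difference -0.42, SE 0.12). Nupr1, a stress-induced nuclear protein, was at 21.2, 13.7 and 190.2 and 25.5, 18.4 and 246 in untreated and TTX-treated wild-type libraries and at 10.6, 7.41 and 12.2 and 1.11, 7.32 and 0 in knockdown, with no overlap and with wild-type culture 3 far above the rest (-3.07, SE 0.95; -1.93 without wild-type culture 3). The transcript of Atf4 itself differed by 0.09 (SE 0.24), and as background ATF4 is controlled mainly at translation. Trib3 and Slc7a11 were lowest in knockdown culture 1. Leaving out any 1 culture gave list medians from -0.67 without wild-type culture 3 to -0.37 without wild-type culture 1.

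Promoters of these genes are shown because ATF4 and its C/EBP partners bind a composite element in several of them. RefSeq windows of 300 bases, from 250 before to 50 after the annotated start on GRCr8, were found for 23 of the 32 genes (25 windows). The letters TGATGNAA, searched on both strands, occurred in 4 of these 25 windows (16%) and in 1332 of 33469 rat promoter windows (3.98%). The match is a description of letters and not a binding site. The stretches below hold the match in capitals, read 5′ to 3′ on the gene's strand, where it appears as its reverse complement.
Trib3: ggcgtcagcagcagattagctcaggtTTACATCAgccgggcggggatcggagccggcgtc
Nupr1: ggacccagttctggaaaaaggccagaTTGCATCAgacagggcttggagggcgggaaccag
Chac1: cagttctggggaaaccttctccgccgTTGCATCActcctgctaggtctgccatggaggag
Pck2: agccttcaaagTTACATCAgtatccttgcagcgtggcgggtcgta
They lie at chr3:161275521-161275580 (minus strand) for Trib3, chr1:190645923-190645982 (minus strand) for Nupr1, chr3:126795938-126795997 (plus strand) for Chac1 and chr15:32997603-32997647 (plus strand) for Pck2. The match begins 21 bases before the annotated start in Trib3, 55 in Nupr1, 167 in Chac1 and 239 in Pck2. Differences of these genes were -2.08, -3.07, -0.52 and -0.51, in the order of the stretches, and Chac1, a glutathione-degrading enzyme, was the only one of the 4 whose cultures overlapped.

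Cytosolic ribosomal protein genes were lower in 60 of 80 cases (median -0.27), with 16 below wild-type in all cultures and 1 above. Over all genes 6.29% lay below and 6.22% above. Rps27 was at 1225, 756 and 974 untreated and 1225, 861 and 759 with TTX in wild-type, and at 412, 496 and 656 and 381, 406 and 610.4 in knockdown (-0.97, SE 0.24). Knockdown culture 3 was the highest of its genotype in Rps27, and its median over the list lay above the wild-type mean (0.15, against -0.47 and -0.35 in knockdown cultures 1 and 2). Rps18 and Rps4x, other proteins of the small subunit, differed by -0.86 and -0.89 at low levels of 29.2 ± 5.58 against 53.2 ± 10.7 and 14.2 ± 2.17 against 26.9 ± 2.24 (SD, n = 3 cultures each). These values are uncertain, since reads can be shared between a ribosomal protein gene and its processed copies. List medians without any 1 culture ran from -0.42 without knockdown culture 3 to -0.12 without knockdown culture 1, and were -0.14 without wild-type culture 1 and -0.15 without knockdown culture 2. Oxidative phosphorylation genes had a median of 0.07 (49 of 78 higher), which was -0.06 without knockdown culture 3, with 51 of 78 lower. Glycolysis genes had one of 0.15 (18 of 23 higher), which was 0.07 without knockdown culture 3.

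Neuropeptides, granins and their processing enzymes were high as a list. Of 25 measured, 24 were higher in knockdown (median 0.42), 7 of them with culture means above wild-type and none below, against 6.22% above over all genes. Chga, chromogranin A of dense-core vesicles, was at 1974, 2056 and 1418 untreated and 1401, 1994 and 1184 with TTX in wild-type, and at 3123, 2328 and 2525 and 2726, 2308 and 2009.9 in knockdown (0.60, SE 0.20). Scg5, a chaperone of a prohormone convertase, overlapped, and was at 2209 ± 440.1 against 1448 ± 313 (SD, n = 3 cultures each; difference 0.61, SE 0.22). Scg2, secretogranin II, was at 795 ± 141 against 676 ± 55.1 (SD, n = 3 cultures each), with a difference of 0.08 untreated and 0.63 with TTX. Pdyn, the dynorphin precursor, was near the minimum for testing, at 12.1 ± 2.19 against 7.70 ± 1.79 (SD, n = 3 cultures each; difference 0.69). Vgf and Npy, peptide genes that depend on firing, differed by 0.76 (SE 0.56) and 0.24 (SE 0.54) and overlapped, and Cort was the only member lower (-0.50, SE 0.41). The median of the list was 0.32 in untreated and 0.57 in TTX-treated libraries. Knockdown culture 1 had the highest median over members (0.65, against 0.33 and 0.22), and without it the list median was 0.25.

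Activity-dependent genes leaned the same way. The late effector list shares members with the neuropeptide list, among them Sst, Scg2 and Vgf, so their counts are not separate. Sst is also among the GABAergic markers. Immediate early genes, the first transcripts made after firing, were higher in 25 of 31 cases (median 0.31, 3 with culture means above wild-type and 0 below), and late activity effectors in 27 of 31 (median 0.35, 4 above and 0 below), where 6.22% lay above and 6.29% below over all genes. In knockdown culture 2 the immediate early median was -0.01, below wild-type cultures 2 (0.04) and 3 (0.11). Btg2, an antiproliferative immediate early gene, was at 1731 ± 116 against 1300.3 ± 220.5 (SD, n = 3 cultures each; difference 0.43, SE 0.16), and Egr3, a zinc-finger factor, at 247 ± 91.4 against 154 ± 37.1 (difference 0.66, SE 0.29). Ier3 differed by 0.57 at low levels and overlapped. Rgs4, a late gene that damps G-protein signalling, was at 2291, 4326 and 2788 and 861, 1243 and 632 in untreated and TTX-treated wild-type libraries, and at 5547, 2827 and 5421 and 2079, 1238 and 1686 in knockdown (0.72, SE 0.31), with overlap. Without knockdown culture 1 the medians were 0.14 for immediate early genes and 0.23 for late effectors, and without knockdown culture 2 that of immediate early genes was 0.47. The median of immediate early genes was 0.21 in untreated and 0.45 in TTX-treated libraries, a difference between treatments that was not tested for the list.

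Promoters of 4 peptide genes are shown because they hold the cAMP response element, the site through which CREB answers calcium and cAMP. Its letters TGACGTCA, which read alike on both strands, occurred in 4 of 21 windows found for the 25 peptide and granin genes (19%), in 5 of 23 windows of the 31 immediate early genes (21.7%), in 0 of 25 of the stress genes and in 612 of 33469 rat promoter windows (1.83%). The letters are in capitals in these RefSeq stretches of GRCr8, written 5′ to 3′ on the gene's strand.
Sst: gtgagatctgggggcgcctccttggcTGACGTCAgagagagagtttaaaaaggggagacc
Vgf: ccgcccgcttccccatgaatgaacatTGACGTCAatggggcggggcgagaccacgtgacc
Scg2: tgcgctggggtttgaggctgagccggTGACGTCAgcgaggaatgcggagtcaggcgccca
Cartpt: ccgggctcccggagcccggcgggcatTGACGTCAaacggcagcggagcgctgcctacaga
They lie at chr11:90461522-90461581 (plus strand) for Sst, chr12:25277077-25277136 (minus strand) for Vgf, chr9:88256956-88257015 (minus strand) for Scg2 and chr2:32991344-32991403 (minus strand) for Cartpt. In Sst the element begins 2 bases after the annotated start, and in Vgf, Scg2 and Cartpt 90, 123 and 142 bases before it. The 4 genes did not share a value: differences were 1.01 for Sst, 0.76 for Vgf, 0.35 for Scg2 and 0.15 for Cartpt, and culture means were apart in Sst and Scg2.

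Markers of neuron types were higher as a whole in glutamatergic cells and mixed in GABAergic cells. Of 20 glutamatergic markers 18 were higher (median 0.39, 4 with culture means above wild-type and 0 below, where 6.22% lay above over all genes). Neurod6, a transcription factor of pyramidal neurons, was at 2229.5, 2773 and 2045 untreated and 1764, 2665 and 1445 with TTX in wild-type, and at 5149.5, 2852 and 3544 and 4429, 2792 and 3126 in knockdown (0.76, SE 0.26). Tbr1, which specifies deep-layer neurons, was at 685 ± 189 against 431 ± 77.5 (SD, n = 3 cultures each; difference 0.64, SE 0.24), and Sv2b, a synaptic vesicle protein whose cultures overlapped, at 7197 ± 1948 against 4761 ± 1144 (difference 0.59, SE 0.25). Knockdown culture 1 was the highest of the 3 in each, and the list median was 0.21 without knockdown culture 1 and 0.60 without knockdown culture 3. Of 26 GABAergic markers 15 were higher (median 0.25, 4 above and 0 below, against the same 6.22%), a median that became -0.13 without wild-type culture 2 and 0.15 and 0.08 without wild-type culture 1 and knockdown culture 2. Lhx6, the transcription factor of interneurons from the medial ganglionic eminence, was at 181, 133 and 113 and 119, 155 and 114 in untreated and TTX-treated wild-type libraries, and at 243, 233 and 174 and 255, 210.4 and 191 in knockdown (0.68, SE 0.17). Htr3a, the serotonin receptor of another interneuron class, was at 109 ± 24.2 against 73.1 ± 12.5 (SD, n = 3 cultures each; difference 0.56, SE 0.20), and Nxph1, a neurexin ligand, at 1149 ± 25.6 against 969.9 ± 100.3 (difference 0.25). Members with lower values, named after these were seen, include the interneuron lineage factors Sp9 (-1.08, SE 0.99), Sp8 (-0.70, SE 0.68), Dlx2 (-0.62, SE 1.06) and Dlx5 (-0.60, SE 0.79), and Pvalb, the calcium buffer parvalbumin (-0.62, SE 0.88). None of the 11 lower members had culture means apart. Gad1 and Slc32a1, which make and load GABA, differed by 0.06 (SE 0.33) and 0.41 (SE 0.25).

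Presynaptic, postsynaptic, adhesion and axonal genes were mostly higher by small amounts. In these 4 lists the median was highest in knockdown culture 1, intermediate in culture 2 and between -0.12 and 0.07 in culture 3. Presynaptic release genes were higher in 37 of 41 cases (median 0.30; culture medians 0.62, 0.32 and -0.06), 5 with culture means above wild-type and 1 below, where 6.22% lay above and 6.29% below over all genes. Syn2, a vesicle phosphoprotein, was at 2181 ± 471 against 1453 ± 145 (SD, n = 3 cultures each; difference 0.57, SE 0.19), Rab3a, the main vesicle GTPase, differed by 0.43 (SE 0.16), Cplx1, a complexin with overlapping cultures, by 0.57 (SE 0.22) and Amph, amphiphysin of vesicle recycling, by 0.36 (SE 0.13). Neurofilament and axonal genes were higher in 20 of 22 cases (median 0.35), among them Stmn1 (0.48), Stmn3 (0.51) and Stmn4 (0.35), tubulin-binding stathmins whose culture means were apart, and Kif5a, a kinesin whose culture means overlapped (0.53). Postsynaptic scaffold and kinase genes had a median of 0.22 (26 of 30 higher) and synaptic adhesion genes 0.17 (36 of 43), with Camk2d at 0.27, Lgi1, a secreted ligand mutated in epilepsy, at 0.52 and Cntnap5b at 0.77, all with culture means apart. Leaving out any 1 culture moved the presynaptic median from 0.11 without knockdown culture 1 to 0.47 without knockdown culture 3, and the lowest and the highest median of these 4 lists came without knockdown culture 1 and without knockdown culture 3. Without knockdown culture 1 the medians were 0.23 for axonal, 0.10 for postsynaptic and 0.09 for adhesion genes. Knockdown culture 1 was also the culture with the least oligodendrocyte lineage RNA, and the part of cell makeup in these neuronal values was not tested.

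**Figure D4:**
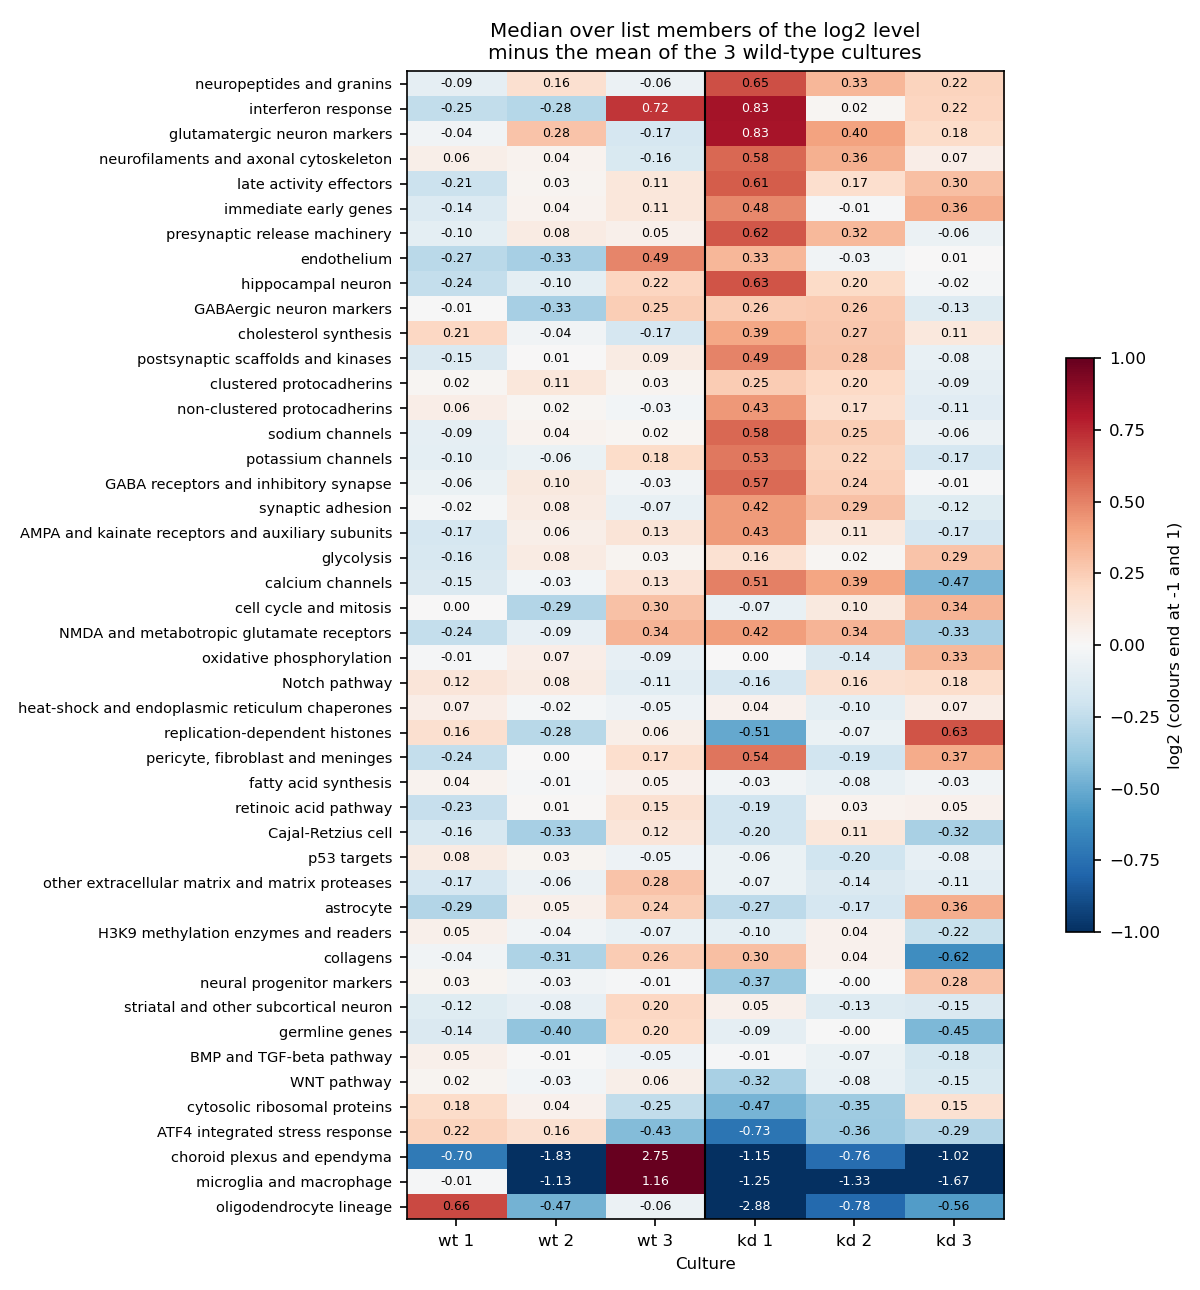
Each cell gives the median over list members of the log2 level in a culture minus the mean of the 3 wild-type cultures, with lists ordered by their difference and colours ending at -1 and 1. Glutamatergic markers are at 0.83, 0.40 and 0.18 in knockdown cultures 1 to 3 and calcium channels at 0.51, 0.39 and -0.47, and wild-type culture 3 is at 2.75 for choroid plexus and ependyma.

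Receptor and channel lists had smaller medians. GABA receptor and inhibitory synapse genes were higher in 15 of 21 cases (median 0.18), with the subunits Gabra3 (0.57, SE 0.18), Gabra4 (0.52, SE 0.17) and Gabrd (0.50, SE 0.20) and the glycine receptor Glra2 (0.53, SE 0.17) above wild-type in all cultures. AMPA and kainate receptor genes had a median of 0.16 (16 of 22 higher): Grik1, a kainate subunit, was at 155 ± 38.9 against 104 ± 13.7 and Cnih2, an auxiliary AMPA receptor protein, at 4355 ± 528 against 3373 ± 299 (SD, n = 3 cultures each). Gria2, the AMPA subunit that blocks calcium entry, went the other way, at 13358 ± 2156 against 16143 ± 793 (SD, n = 3 cultures each; difference -0.28, SE 0.16), with culture means apart. Of 14 NMDA and metabotropic receptor genes 8 were higher (median 0.12), and Grin3b, an NMDA subunit of low calcium permeability, was below wild-type in all cultures (141 ± 32.0 against 220.5 ± 28.7, SD, n = 3 cultures each; difference -0.66, SE 0.21). Potassium channel genes were higher in 53 of 69 cases (median 0.20), sodium channel genes in 12 of 13 (0.21) and calcium channel genes in 12 of 15 (0.14). Cacna2d3, an auxiliary calcium channel subunit, was at 1188, 1337 and 1001 untreated and 1477, 1676 and 1288 with TTX in wild-type, and at 2282, 1536 and 2002 and 2520.5, 2014 and 1970.5 in knockdown (0.63, SE 0.17). Kcnip1 (0.57) and Kcnc2 (0.45), potassium channel genes of interneurons, were above wild-type in all cultures and Kcnj12, an inward rectifier, below (-0.49). Culture means lay above wild-type in 5 and below in 1 of the 69 potassium channel genes. They lay above in 1 and below in 0 of 13 sodium and of 15 calcium channel genes. For GABA receptor genes these counts were 4 and 0 of 21, and for AMPA and kainate genes 3 and 1 of 22. For NMDA and metabotropic genes they were 0 and 1 of 14. Over all genes 6.22% lay above and 6.29% below. Without knockdown culture 1 the medians were 0.06 for GABA receptor, 0.03 for AMPA and kainate, 0.02 for potassium, 0.07 for sodium and -0.04 for calcium channel genes, the last also 0.03 without wild-type culture 1 and 0.0076 without knockdown culture 2. Without knockdown culture 3 they were 0.45, 0.30, 0.38, 0.44 and 0.47 in the same order. The NMDA and metabotropic median was -0.11 without knockdown culture 1, -0.07 without wild-type culture 1 and -0.02 without wild-type culture 2, against 0.33 without knockdown culture 3 and 0.30 without wild-type culture 3. Calcium channel and NMDA and metabotropic genes were lower in knockdown culture 3 than in any wild-type culture, at medians of -0.47 and -0.33.

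Cholesterol synthesis genes were higher in 23 of 24 cases (median 0.24), 6 with culture means above wild-type and 0 below. Over all genes 6.22% lay above and 6.29% below. Mvd, mevalonate diphosphate decarboxylase, was at 1822, 1436 and 1136 untreated and 744, 829 and 591 with TTX in wild-type, and at 2561, 1905 and 1812 and 1051, 1057 and 951 in knockdown (0.52, SE 0.18). TTX-treated libraries were lower in both genotypes. Knockdown libraries lay above wild-type among TTX-treated libraries, and among untreated ones knockdown culture 3 lay just under wild-type culture 1. Nsdhl (0.47, SE 0.17), Sc5d (0.36, SE 0.13) and Ebp (0.66, SE 0.21), enzymes that turn lanosterol into cholesterol, had culture means apart as well. Fatty acid genes did not lean that way (7 of 19 higher, median -0.05). Srebf1, the transcription factor that drives fatty acid synthesis, was at 12804, 11843 and 7375 untreated and 13844, 9693 and 6973 with TTX in wild-type, and at 5348, 6187 and 5838 and 5198, 5052 and 5118 in knockdown. Knockdown libraries were alike and below all wild-type libraries, and wild-type culture 3 was the lowest of its genotype (-0.89, SE 0.23). Cholesterol medians without any 1 culture ran from 0.15 without knockdown culture 1 to 0.35 without wild-type culture 1. The median in wild-type culture 1 alone was 0.21 above the wild-type mean, between knockdown culture 3 at 0.11 and knockdown culture 2 at 0.27, so that the list medians overlapped between genotypes.

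Genes tied to histone H3 lysine 9 methylation made up several lists. Among 21 enzymes and readers of this mark, 14 were lower (median -0.09, or -0.16 without knockdown culture 2 and -0.02 without knockdown culture 3). Below wild-type in all cultures were 3, against 6.29% over all genes: Ehmt1, the demethylase Kdm3a (-0.37, SE 0.14) and the heterochromatin protein gene Cbx3 (-0.31, SE 0.14). Ehmt1 is the target of the hairpin, so its part in these counts and in the median follows from the design. Cbx5, another heterochromatin protein gene, was higher with overlap (0.27, SE 0.16). Clustered protocadherins, adhesion genes that give neurons their surface identity, were higher in 33 of 39 cases (median 0.22). Of these members 14 lay above wild-type in all cultures and 0 below, where 6.22% lay above and 6.29% below over all genes. Transcripts of the alpha and of the gamma cluster share their last exons, so such members are repeated measurements and not independent genes. Pcdhb8 and Pcdhb12, single-exon members of the beta cluster, were at 128 ± 24.5 against 92.0 ± 5.52 and 187 ± 19.2 against 154 ± 1.55 (SD, n = 3 cultures each; differences 0.45 and 0.28). Pcdhga8, of the gamma cluster, differed by 0.22 (SE 0.14). Over all members the culture medians were 0.25, 0.20 and -0.09 in knockdown cultures 1 to 3, and the list median was 0.14 without knockdown culture 1. Outside the clusters, Pcdh18 was above wild-type in all 6 libraries (0.49, SE 0.15), and Pcdh15 was at 81.3, 830.0 and 494 in untreated knockdown against 913, 778 and 934 in untreated wild-type libraries, low mainly in knockdown culture 1. Germline genes, a group silenced by this mark in other cells, were measured in 9 of 25 cases, with a median of -0.16 that was 0.31 without wild-type culture 3 and 0.13 without knockdown culture 3.

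Matrix and signalling lists had medians near 0 and members in both directions. Collagens had a median of -0.10 (13 of 24 lower), with Col16a1 at 1285 ± 279 against 2086 ± 112, Col11a2 at 191 ± 55.3 against 395 ± 121 and Col11a1 at 637 ± 149 against 1551 ± 861 (SD, n = 3 cultures each), all below wild-type in all cultures, and Col5a2 above (0.53). The collagen median was 0.18 without wild-type culture 3 and 0.23 without knockdown culture 3. Other matrix genes, which include Mmp2, Fbln5 and Tnr, had 4 members above and 5 below in all cultures (median -0.07 over 45), near the 6.22% and 6.29% over all genes. Dcn, the proteoglycan decorin, was at 16.2, 17.6 and 25.04 untreated and 17.1, 23.6 and 13.3 with TTX in wild-type, and at 52.9, 42.7 and 84.7 and 56.2, 25.4 and 106 in knockdown (1.55, SE 0.36). BMP and TGF-beta genes had a median of -0.17, in which Bmp4, a ligand that precursor cells of oligodendrocytes express, was at 693, 201 and 356 untreated and 896, 344 and 271 with TTX in wild-type, and at 3.31, 177 and 118 and 2.21, 88.1 and 122 in knockdown. Knockdown culture 1 had almost no Bmp4, as it had little Pdgfra. Id4, an inhibitor of differentiation factors, was at 759.8 ± 165 against 1129.8 ± 131 (SD, n = 3 cultures each; difference -0.59, SE 0.20). WNT genes had a median of -0.19 (16 of 26 lower), with the ligand Wnt4 above (0.53) and the factor Tcf7l2 (-0.56) and the receptor Fzd8 (-0.46) below in all cultures. The WNT median was -0.04 without wild-type culture 3 and the BMP and TGF-beta median -0.07 without wild-type culture 1. Egfr, a receptor of neural progenitors, was above (0.79, SE 0.30) in a progenitor list with a median of -0.11, which was 0.12 without knockdown culture 1.

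Interferon response genes were higher in 27 of 32 cases (median 0.40), yet none had culture means apart in either direction. Over all genes 6.22% lay above and 6.29% below. Ifi27, an interferon-induced mitochondrial protein, was at 132, 213 and 425 untreated and 115, 258 and 617 with TTX in wild-type, and at 2406, 388 and 436 and 1845, 751 and 371 in knockdown. Wild-type culture 3 and knockdown culture 1 were the high cultures (list medians of 0.72 and 0.83 relative to the wild-type mean), and leaving them out in turn gave 0.80 and 0.11. Without wild-type culture 2 it was 0.17. Cell cycle genes had a median of 0.14 (28 of 38 higher), which was 0.01 without wild-type culture 2, 0.03 without knockdown culture 3 and 0.26 without wild-type culture 3. Of them 2 had culture means above wild-type, near the 6.22% over all genes. Medians were -0.07 for p53 targets, 0.03 for heat-shock and endoplasmic reticulum chaperones, 0.06 for Notch genes, -0.05 for retinoic acid genes and -0.01 for replication-dependent histones. Some of these changed sign when 1 culture was left out. The Notch median was -0.04 and the histone median -0.28 without knockdown culture 3, against 0.16 and 0.28 without knockdown culture 1. The retinoic acid median was 0.18 without wild-type culture 3 and -0.11 without wild-type culture 1. Among chaperones, Hspa9, the mitochondrial HSP70, was below wild-type in all cultures (-0.41, SE 0.16) and Calr, calreticulin, above (0.29, SE 0.13). Markers of striatal and other subcortical neurons had a median of -0.15 over 13 genes, of Cajal-Retzius cells -0.05 over 6 and of hippocampal neurons 0.28 over 8. The Cajal-Retzius median was 0.40 without wild-type culture 3 and -0.28 without wild-type culture 2.

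**Figure D5:**
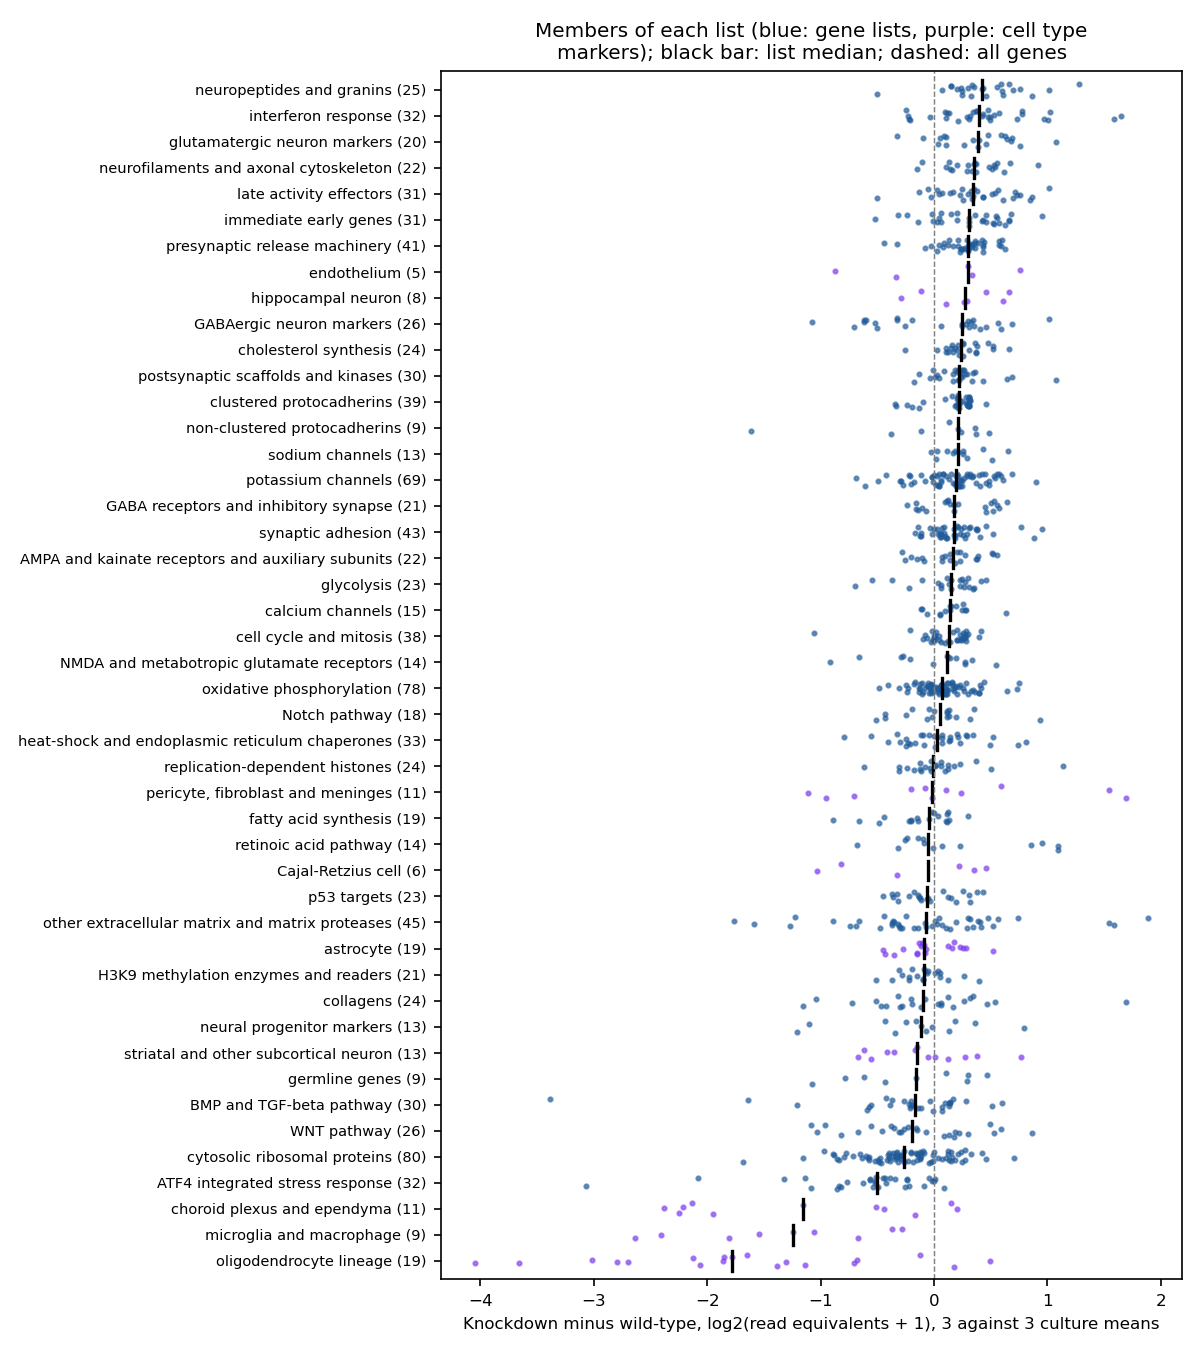
Each point is a measured member of a list, with its knockdown minus wild-type difference in log2(read equivalents + 1) on the x axis, blue for gene lists and purple for cell type markers, and the black bar is the list's median. The oligodendrocyte lineage list has the lowest median (-1.78) and neuropeptides and granins the highest (0.42), and the dashed line is the median of all genes tested.

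Genes with culture means apart mostly had the same direction in both treatments. Of the 751 genes with knockdown culture means above wild-type, 748 were higher in both treatments, and of the 759 below, 751 were lower in both. The averages contain both treatments, and opposite differences cancel in them. These counts thus follow largely from the choice of genes and cannot show what averaging hid. Limma on the TTX minus untreated difference of each culture called 0 of 12073 genes for a dependence of the knockdown difference on TTX (0%), and 455 genes had an unadjusted p below 0.05. Within a treatment, limma also called 0, and 545 genes in untreated and 859 in TTX-treated libraries had an unadjusted p below 0.05. In limma Mmp2 had an adjusted p of 0.214 in TTX-treated libraries at a difference of 1.67, against 1.499 untreated, and its adjusted p lay between 0.0449 and 0.997 over the alternatives.

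The authors' deposited table compares 6 knockdown with 6 wild-type libraries and carries a signed z and a p for each transcript. Judged from z and p together, that p covers only the direction of z. Benjamini-Hochberg values from it are therefore lower than from a two-sided p. A comparison of 6 with 6 libraries, if these are taken as separate replicates, also counts each culture more than once. In limma, the 12 libraries as separate replicates gave 2033 genes at an unadjusted p under 0.05, against 735 over culture means. Counts from the authors' p are therefore not on the same footing as those of the two-sided limma test over culture means. Benjamini-Hochberg values computed from that p were under 0.05 for 488 of 17339 symbols in the authors' deposited table, 224 with a positive and 264 with a negative z. Of these, 483 were tested here, and all 483 had the same sign as the difference over culture means, with 425 free of overlap between culture means. Ehmt1 had a z of -3.86 in the authors' deposited table, Mmp2 one of 8.58, Nrsn2 one of 6.93 and LOC102723236 one of -6.90. Sst, ranked among the 15 highest here, had a z of 1.305 and a p of 0.0963 in the authors' deposited table. Both analyses rest on the same 12 libraries, so neither the shared signs nor the 425 without overlap are independent of the authors' p. Over all genes tested, culture means lay above wild-type without overlap in 6.22% and below in 6.29%.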

How the data were processed

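RNA was depleted of ribosomal RNA and sequenced as strand-specific single-end libraries, per the labels' protocols. Per the submitters' processing notes GSNAP, DESeq, DESeq2 and the rn6 build were used, with no versions given. The deposited signal is base coverage added up over each RefSeq transcript and scaled by a size factor, as inferred from the values. It was divided by 42, the read length, to give read equivalents. The authors' deposited p-values and z score were copied and only the Benjamini-Hochberg values added.

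Each symbol kept its most covered entry, 5266 symbols under the minimum were left out, and limma 3.58.1 (R 4.3.3) was fitted to culture means of log2(value + 1) with 4 residual degrees of freedom and Benjamini-Hochberg adjustment over 12073 genes at 0.05. Genes named are Ehmt1, the 15 with the smallest p in each direction at a mean of at least 50 and without overlap of culture means, and up to 4 per list, with others given for context. Members and lists were chosen with earlier results of these data known, and some genes are on several lists. Deviations of same-numbered knockdown and wild-type cultures correlated at -0.30, -0.17 and -0.01, so the numbers were not taken as pairs. P-values measure only the spread between these samples. The fit was tested on simulated data. Values of some genes are counted in the lists but not reported here.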

Additional observations from a re-analysis of the deposited data

How the results depend on the processing

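The count of 0 calls in limma held for other pseudocounts, filters, scalings, variance settings, ways of averaging and summing, single treatments and culture as a random block. It was 25 of 14609 genes on values as deposited, where genes of lower coverage passed the minimum, and 3 with the 12 libraries as separate replicates. Leaving out a culture gave 0 to 0 calls, with 324 genes at an unadjusted p under 0.05 without knockdown culture 1 and 1260 without knockdown culture 3. With a replicate block the count was 0, with 484 genes at an unadjusted p under 0.05. The labels do not say whether same-numbered cultures of the genotypes share a source. The interaction with TTX gave 6 calls on values as deposited. The endothelial gene Egfl7 was at -0.0748 in TTX-treated libraries alone, against 0.33, and Vwf lay between -1.363 without wild-type culture 1 and 0.0464 without wild-type culture 3, against -0.87. The cause was not tested.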
